A study of Rattus norvegicus with 48 samples.

Results

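The kidneys of LF rats after 10 days of indole-3-carbinol were compared with those of LF rats given the carrier. The comparison takes the 4 arrays labelled LF day 10 against the 4 labelled LF day 0, that is 8 of the 48 arrays of the series, and covers all 8797 probe sets of the table. The series profiled kidney RNA of male rats of 4 strains, named F, L, FL and LF in the labels, with no key to these letters. Per the labels' protocols, groups of 8 rats were gavaged daily with indole-3-carbinol, 100 mg/kg of body weight, over 7 or 10 days, and control groups with vegetable oil as carrier. The rats were 12 weeks old in the sample labels (12 to 14 in the protocol), were housed singly and had free access to chow and water under a light and dark cycle. The carrier group is called day 0 here, as in the labels, so day 0 and day 10 differ in the compound and the labels do not say how long the carrier was given. The design gives 4 biological replicates per group, but neither the make-up of an array's RNA, from 1 rat or from a pool, nor the hour of kidney collection is in the labels.

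Cabbage and related plants yield indole-3-carbinol, a compound whose acid condensation products bind the aryl hydrocarbon receptor, a transcription factor that switches on Cyp1a1. The kidney filters blood in the glomerulus, whose podocytes hold the filter, and recovers water and solutes along the proximal tubule, the loop, the distal convoluted tubule and the collecting duct. Injured tubule cells lose transport functions and make secreted and surface proteins such as Lcn2 and Havcr1. Many tubular genes also follow the daily clock, in which Bmal1 and Clock drive the Per, Cry, Dbp and Bhlhe genes, some of which in turn repress Bmal1 and Clock.

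Values are log2 signals, and a difference of 1 is a doubling of the signal. A gene is said to have risen or fallen where limma's moderated test, fitted to all 48 arrays, gave a Benjamini-Hochberg adjusted p under 0.05 over the whole table. Each difference is day 10 minus day 0 with its standard error, and values by array are in the order of replicates 1, 2, 3 and 4. Medians of the 8 arrays lay between 5.82 and 6.06, the SD over probe sets averaged 2.47 on both days, and arrays of a group correlated at 0.988 to 0.992. Markers of kidney segments were bright on all 8 arrays, with Umod of the loop at 12.64 to 12.99 and Lrp2 of the proximal tubule at 11.78 to 12.08. The array file labels place the 12 arrays of each replicate number in a set of their own, and each of the 4 sets holds 1 array of every group. The table has no detection calls, and precision is limited by the 4 arrays a group.

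After 10 days 52 probe sets rose and 26 fell in LF kidneys. That is 0.887% of the 8797 tested, 0.591% for rises and 0.296% for falls, and 581 had an unadjusted p under 0.05. The rises held 11 tubular injury markers and 5 acute phase genes. Clock genes moved both ways, with 2 rises and 5 falls, as did collecting duct markers, with 2 and 2, although the latter calls were all lost without day 10 replicate 1. Of the proximal tubule markers 2 fell. Among all 7589 named genes 0.632% rose and 0.316% fell, the shares to set beside these and the later day 10 against day 0 counts of list members. The signal moved by more than 1 log2 unit in 16 of the rises and 8 of the falls, while the median difference of all probe sets was 0. In 76 of the 78 the 4 day 10 arrays lay wholly above or below the 4 day 0 arrays, which held for 2.66% (above) and 2.5% (below) of all probe sets. The exceptions were Aqp2 and probe set 7089436, which carries several gene symbols. Within each of the 4 array sets all 78 moved in the direction of the mean, which for the 76 follows from their separation. The 78 were called from these same arrays, so neither count is separate evidence. With the array set as a block the counts were 69 rises and 43 falls.

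**Figure D1:**
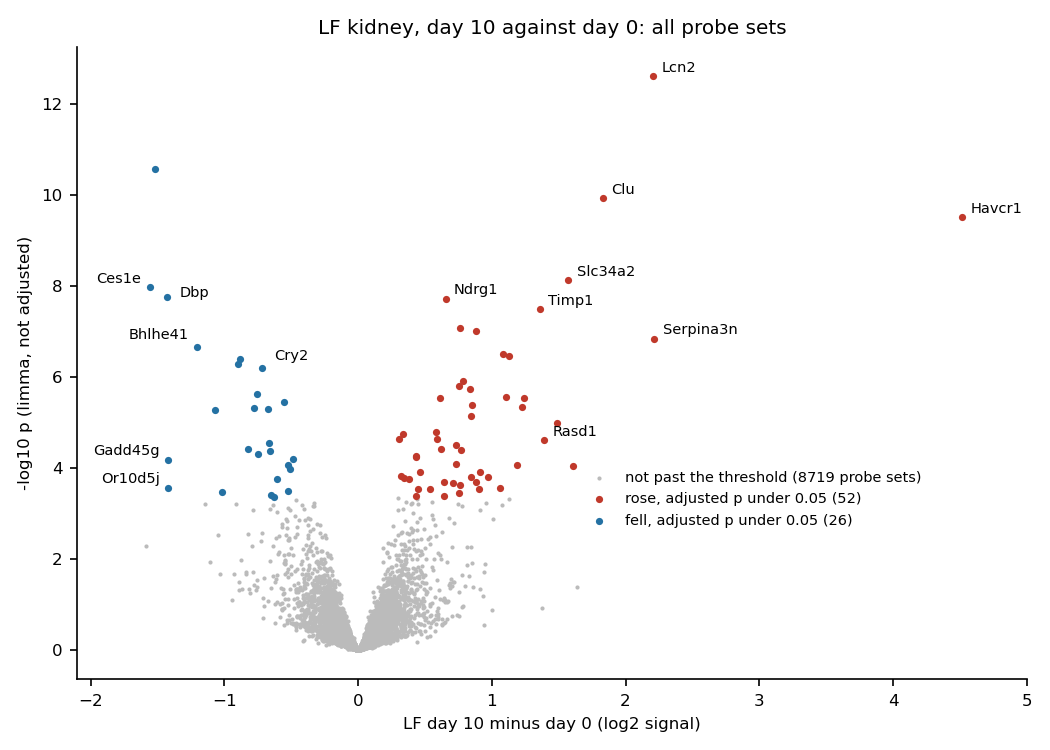
Each point is a probe set, with the LF day 10 minus day 0 difference in log2 signal on the x axis and the unadjusted -log10 p of limma on the y axis. The 52 rises (red) reach 4.52 in Havcr1, and the 26 falls (blue) reach -1.56 in Ces1e.

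The number of calls moved with single arrays and with scaling. Without LF day 10 replicate 1 it was 47, and without LF day 0 replicate 1 it was 51. The 8 arrays alone gave 49. Rises were 52 of 78 calls, but 79 of 146 after a second quantile normalization, 76 of 150 with array medians subtracted, 86 of 164 with array weights and 114 of 217 with the array spread as covariate. All named probe sets kept their direction under these settings.

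Tubular injury markers formed the largest group. Of 34 on the list 27 were measured, 11 rose (40.7%, against 0.949% of all named genes called) and 0 fell, and the list median was 0.38 against 0 for all probe sets. The gene lists were chosen with earlier results of these data known, so such shares describe the lists and do not test them. Havcr1, also known as kidney injury molecule 1, a receptor that lets tubule cells engulf debris, read 3.90, 3.83, 3.95 and 3.84 at day 0 and 9.32, 8.48, 7.32 and 8.47 at day 10. Values were close together at day 0 and widely spread at day 10, and every day 10 array was far above every day 0 array. The difference was 4.52 ± 0.54 (adjusted p = 6.64e-07), a 22.9-fold higher signal. In a bulk kidney, more cells of a type and more RNA per cell cannot be told apart.

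Lcn2, a secreted protein that binds bacterial iron carriers, read 5.59, 5.85, 5.61 and 5.48 at day 0 and 8.10, 7.86, 7.51 and 7.88 at day 10, a rise of 2.21 ± 0.20 (adjusted p = 2.09e-09). Clu, a secreted chaperone, went from 8.76, 8.85, 8.63 and 8.46 to 10.85, 10.58, 10.09 and 10.51, a rise of 1.83 ± 0.21 (adjusted p = 3.45e-07). In both genes, as in Havcr1, replicate 3 was the lowest day 10 array and replicate 1 the highest, and the groups did not overlap. Slc34a2, a sodium-phosphate carrier best known from lung and gut, rose from 7.61, 7.54, 7.41 and 7.41 to 9.38, 9.10, 8.76 and 9.02, with the same array order at its ends (1.57 ± 0.22, adjusted p = 1.29e-05). Timp1, an inhibitor of metalloproteinases, rose by 1.36 ± 0.20 and Cd44, a receptor for hyaluronan, by 1.13 ± 0.18. Timp1 lay between 5.51 and 6.28 at day 0 and between 6.98 and 7.46 at day 10, without overlap.

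The other injury markers that rose were smaller changes. They were Anxa2 (0.85 ± 0.20) and its binding partner S100a10 (0.75 ± 0.13), the receptor Tnfrsf12a (0.73 ± 0.16), the filament protein Vim (0.61 ± 0.11) and the surface protein Cd24 (0.46 ± 0.11). Vim lay between 8.52 and 8.77 at day 0 and between 9.22 and 9.30 at day 10, a narrow day 10 group. Of the 16 members that did not pass, Lgals3 had 0.50 ± 0.15 (adjusted p = 0.143) and Anxa1 0.47 (adjusted p = 0.281). Over all 27 measured members, 22 lay above 0 and 5 below, the lowest at -0.41. The count of 11 went down to 8 without day 10 replicate 1, where Anxa2, Cd24 and Tnfrsf12a lost their calls (adjusted p = 0.123, 0.135 and 0.0828). Tnfrsf12a, Cd24 and Anxa2 also missed the threshold with the 8 arrays alone (adjusted p = 0.139, 0.207 and 0.0702). Other single arrays that took calls away were day 0 replicates 1 and 4 and day 10 replicates 2 and 4 for Anxa2 (adjusted p between 0.0541 and 0.161) and day 0 replicates 3 and 4 and day 10 replicate 4 for Cd24 (between 0.0856 and 0.111).

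**Figure D2:**
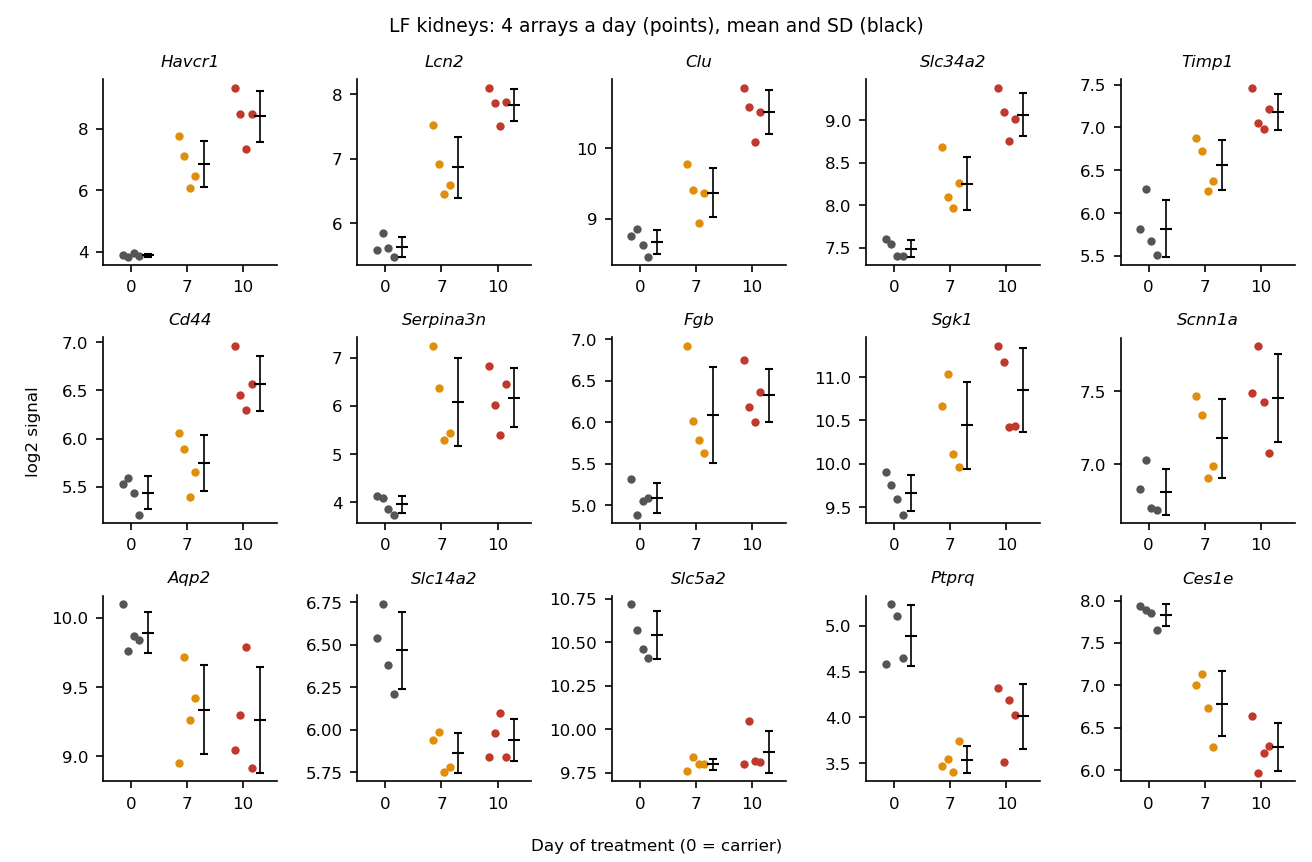
Panels show 1 gene each in LF kidneys, with the day of treatment on the x axis and log2 signal on the y axis. Points are the 4 arrays of a day, and the black mark gives their mean and SD. The Havcr1 arrays lie between 3.83 and 3.95 at day 0 and between 7.32 and 9.32 at day 10, whereas Aqp2, at 9.76 to 10.10 and then 8.92 to 9.79, has 1 day 10 array within the day 0 range.

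Acute phase genes, which the liver makes in bulk during inflammation under Stat3 and which epithelia can make too, also rose. Of 21 measured members of a list of 25, 5 rose (23.8%, against 0.949% of all named genes called) and 0 fell, and the median was 0.31. Of the 21, 17 lay above 0 and 4 below, the lowest at -0.545. Serpina3n, a secreted inhibitor of serine proteases, read 4.13, 4.09, 3.87 and 3.74 at day 0 and 6.82, 6.02, 5.39 and 6.46 at day 10, a rise of 2.21 ± 0.35 (adjusted p = 0.000104). Fgb, the beta chain of fibrinogen, read 5.32, 4.88, 5.05 and 5.08 and then 6.75, 6.18, 6.0 and 6.36, a rise of 1.24 ± 0.23 (adjusted p = 0.00101). In both, the groups were apart and replicate 3 was the lowest day 10 array.

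The promoters of these genes are shown because they hold letters of the kind that Stat3 binds. RefSeq's table for build GRCr8 gave the 250 bases before the gene start for 4 of the 5 acute phase genes that rose, and TTCNNNGAA, searched on both strands, was in 2 of them, against 7.67% of all 33469 promoters of that length. Of the 11 injury markers that rose 9 had a promoter in the table, and the motif was in 1, that of Tnfrsf12a. The sequences run 5′ to 3′ on the gene's strand with the match in capitals. Serpina3n lies at chr6:129088142-129088391 on the plus strand, with the match starting 123 bases before the gene start, and Fgb at chr2:170700876-170701125 on the minus strand, with the match 223 bases before it. A match is a run of letters and does not show binding.
Serpina3n: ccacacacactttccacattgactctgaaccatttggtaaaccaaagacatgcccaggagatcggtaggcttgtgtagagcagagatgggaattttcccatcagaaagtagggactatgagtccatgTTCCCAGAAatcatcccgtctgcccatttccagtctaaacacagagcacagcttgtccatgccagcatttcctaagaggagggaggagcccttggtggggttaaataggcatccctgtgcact
Fgb: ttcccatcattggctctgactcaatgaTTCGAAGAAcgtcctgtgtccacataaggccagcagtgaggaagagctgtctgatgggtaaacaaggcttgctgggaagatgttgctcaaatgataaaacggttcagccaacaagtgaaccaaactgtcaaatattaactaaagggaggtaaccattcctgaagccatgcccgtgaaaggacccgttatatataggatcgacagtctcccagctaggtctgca

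Stat3 itself, which carries the signal of interleukin-6 type cytokines, went from 8.74, 8.72, 8.61 and 8.56 to 9.08, 9.13, 9.0 and 9.14, a small rise without overlap (0.43 ± 0.09, adjusted p = 0.0101). The protease inhibitor A2m rose by 0.31 ± 0.06 (adjusted p = 0.00541). Fgg, the gamma chain of fibrinogen, rose by 0.76 ± 0.19 (adjusted p = 0.0422), between 2.44 and 2.67 at day 0 and between 3.09 and 3.46 at day 10. A2m and Fgg were among the dimmest probe sets, which 1 alternative fit left out, and the table has no detection calls. Fga, the alpha chain, had 1.13 ± 0.30 (adjusted p = 0.0509), and Osmr, the oncostatin M receptor, 0.92 ± 0.25 (adjusted p = 0.0691), so both missed the threshold. Stat3 lost its call without day 0 replicate 4 (adjusted p = 0.0578) and with the 8 arrays alone (0.0695), and A2m with the 8 arrays alone (0.195) and with array medians subtracted (0.155). Fgg lost it without any single array except day 10 replicate 3 (adjusted p between 0.0703 and 0.156) and when the 5 low-spread arrays of other groups, none at LF day 0 or 10, were dropped (0.0538).

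Clock genes moved in both directions. Of 18 measured genes of a list of 28, 2 rose and 5 fell (38.9%, against 0.949% of all named genes called), with a list median of -0.16. Bmal1, the activator of the clock's positive arm, rose from 5.15, 4.93, 4.55 and 4.70 to 6.53, 6.46, 6.17 and 6.12 (1.49 ± 0.29, adjusted p = 0.00271). Nfil3, a repressor of the genes that Dbp activates, rose by 0.91 ± 0.23 (adjusted p = 0.0358). The genes that fell were Dbp, Tef, Per3, Bhlhe41 and Cry2, which include transcription factors of the clock's output and repressors of its negative arm.

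Dbp, an activator of output genes, read 9.82, 10.08, 10.18 and 9.93 at day 0 and 8.23, 8.49, 8.92 and 8.66 at day 10, a fall of 1.43 ± 0.20 (adjusted p = 2.06e-05). Cry2, a repressor of the clock, fell from 7.86, 7.74, 7.78 and 7.57 to 7.11, 7.09, 6.95 and 6.92 (-0.72 ± 0.12, adjusted p = 0.000308). No day 10 array reached a day 0 array in either gene. Bhlhe41, another repressor, fell by 1.21 ± 0.19 (adjusted p = 0.000146), with day 0 replicate 2 at 6.55 and the other day 0 arrays at 5.29 to 5.77, against 4.17 to 4.88 at day 10. Per3 fell by 0.75 ± 0.14 (adjusted p = 0.000933) and Tef, a relative of Dbp, by 0.61 ± 0.15 (adjusted p = 0.0242). Per2 (-0.53 ± 0.14, adjusted p = 0.0661) and Nr1d1, the repressor of Bmal1 (-0.83 ± 0.26, adjusted p = 0.165), did not pass, although all their day 10 arrays lay below all their day 0 arrays.

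The 7 genes that moved all had a promoter in the RefSeq table. The E-box CACGTG, to which Bmal1 with Clock binds, was in 2 of them, against 5.59% of all promoters. The letters AGGTCA, part of the sites of Nr1d1 and related receptors, were in 1, against 14.1%, and the D-box TTATGNAA, a site of Dbp and Nfil3, in 0, against 3.28%. Each was searched on both strands and none overlaps another in the sequences shown, which are given because their genes moved in opposite directions. Bhlhe41, which fell, lies at chr4:180569356-180569605 on the minus strand with the E-box 48 bases before the gene start, Tef, which fell, at chr7:115206577-115206826 on the plus strand with the E-box at 198 bases, and Bmal1, which rose, at chr1:176766078-176766327 on the plus strand with AGGTCA at 15 bases.
Bhlhe41: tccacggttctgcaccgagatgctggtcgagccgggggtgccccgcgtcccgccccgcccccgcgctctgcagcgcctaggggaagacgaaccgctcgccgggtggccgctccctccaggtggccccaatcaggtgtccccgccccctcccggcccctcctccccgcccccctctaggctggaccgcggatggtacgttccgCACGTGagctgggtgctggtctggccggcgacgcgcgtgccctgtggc
Tef: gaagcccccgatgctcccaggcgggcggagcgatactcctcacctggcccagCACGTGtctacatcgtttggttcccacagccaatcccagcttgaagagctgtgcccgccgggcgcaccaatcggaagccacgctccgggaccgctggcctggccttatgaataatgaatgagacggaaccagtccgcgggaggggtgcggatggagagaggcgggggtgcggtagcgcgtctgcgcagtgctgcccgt
Bmal1: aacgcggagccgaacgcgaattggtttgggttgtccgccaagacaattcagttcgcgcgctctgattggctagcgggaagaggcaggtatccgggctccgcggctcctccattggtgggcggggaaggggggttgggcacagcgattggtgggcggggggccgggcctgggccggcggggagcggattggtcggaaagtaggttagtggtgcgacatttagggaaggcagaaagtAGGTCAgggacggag

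The clock genes were then set beside the other strains, a comparison added after the values were seen. At day 0, 9 of the 18 clock genes differed between LF and the mean of F, L and FL (50%, against 1.73% of all probe sets), 8 higher and 1 lower in LF (1.24% and 0.489% of all). At day 10, 1 of the 18 differed (5.56%, against 2.23% of all, 1.75% higher and 0.477% lower), namely Per3, higher in LF at 0.40 ± 0.11 (adjusted p = 0.0447). These comparisons and the LF response use the same LF arrays, so they are not independent of it. Nor do the counts of the 2 days test whether the LF response differed from that of the other strains. Tested directly against the mean response of F, L and FL, Cry2 was the only clock gene that passed. Dbp on the LF day 0 arrays, at 9.82 to 10.18, lay above every day 0 array of F (8.53 to 8.79), L (8.36 to 8.81) and FL (8.72 to 9.02), by 1.32 ± 0.17 over their mean (adjusted p = 6.59e-07). Bmal1 on the LF day 0 arrays, at 4.55 to 5.15, lay below all of them (5.74 to 6.94), by -1.59 ± 0.24 (adjusted p = 2.65e-05). LF at day 10 lay among the other strains' day 10 arrays for Bmal1, 6.12 to 6.53 against 5.78 to 7.59. Dbp at day 10 stood 0.46 ± 0.17 higher in LF than in the other strains (adjusted p = 0.188).

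Cry2 was 0.78 ± 0.10 higher in LF than in the other strains at day 0 (adjusted p = 9.69e-07) and 0.07 ± 0.10 higher at day 10 (adjusted p = 0.836). Nfil3 did not pass on either day (-0.39 ± 0.19, adjusted p = 0.415, at day 0 and 0.01 ± 0.19, adjusted p = 0.99, at day 10). Per2, Tef, Usp2, Wee1, Bhlhe41 and Per3 were higher in LF at day 0 by 0.67 to 1.11, at adjusted p values of 0.00508 or less. The day 0 differences of these 9 genes had the same sign in all 4 array sets and passed the threshold under each of 9 alternative fits. The fits left out each LF day 0 array, blocked on the set, weighted or rescaled the arrays, or took their spread as covariate. None of the fits left out an array of F, L or FL or used the compared arrays alone. The highest adjusted p among them was 0.0482, for Usp2. Levels of these genes vary over the day, and whether the groups differed in the hour of collection cannot be told from the labels. At day 10 Per3 was lost in at least 1 of 9 such fits (adjusted p up to 0.244), and Bmal1 passed in at least 1 (down to 0.0252).

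Ndrg1 and Sik1, which are not on the clock list, also differed between LF and the other strains at day 0. Ndrg1, a stress-responsive gene of hypoxia and differentiation, read 11.32, 11.33, 11.56 and 11.23 at day 0 and 12.03, 12.04, 12.06 and 11.93 at day 10 (0.66 ± 0.09, adjusted p = 2.06e-05). In F, L and FL it lay at 11.80 to 12.31 at day 0, above all LF day 0 arrays (LF lower by -0.65 ± 0.08, adjusted p = 1.47e-07). Sik1, a salt-inducible kinase, fell from 7.47, 7.87, 7.98 and 7.78 to 7.07, 7.05, 7.21 and 7.07 (-0.68 ± 0.13, adjusted p = 0.00146). Its day 0 arrays in the other strains lay at 6.65 to 7.17, below those of LF (LF higher by 0.90 ± 0.10, adjusted p = 1.35e-07).

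**Figure D3:**
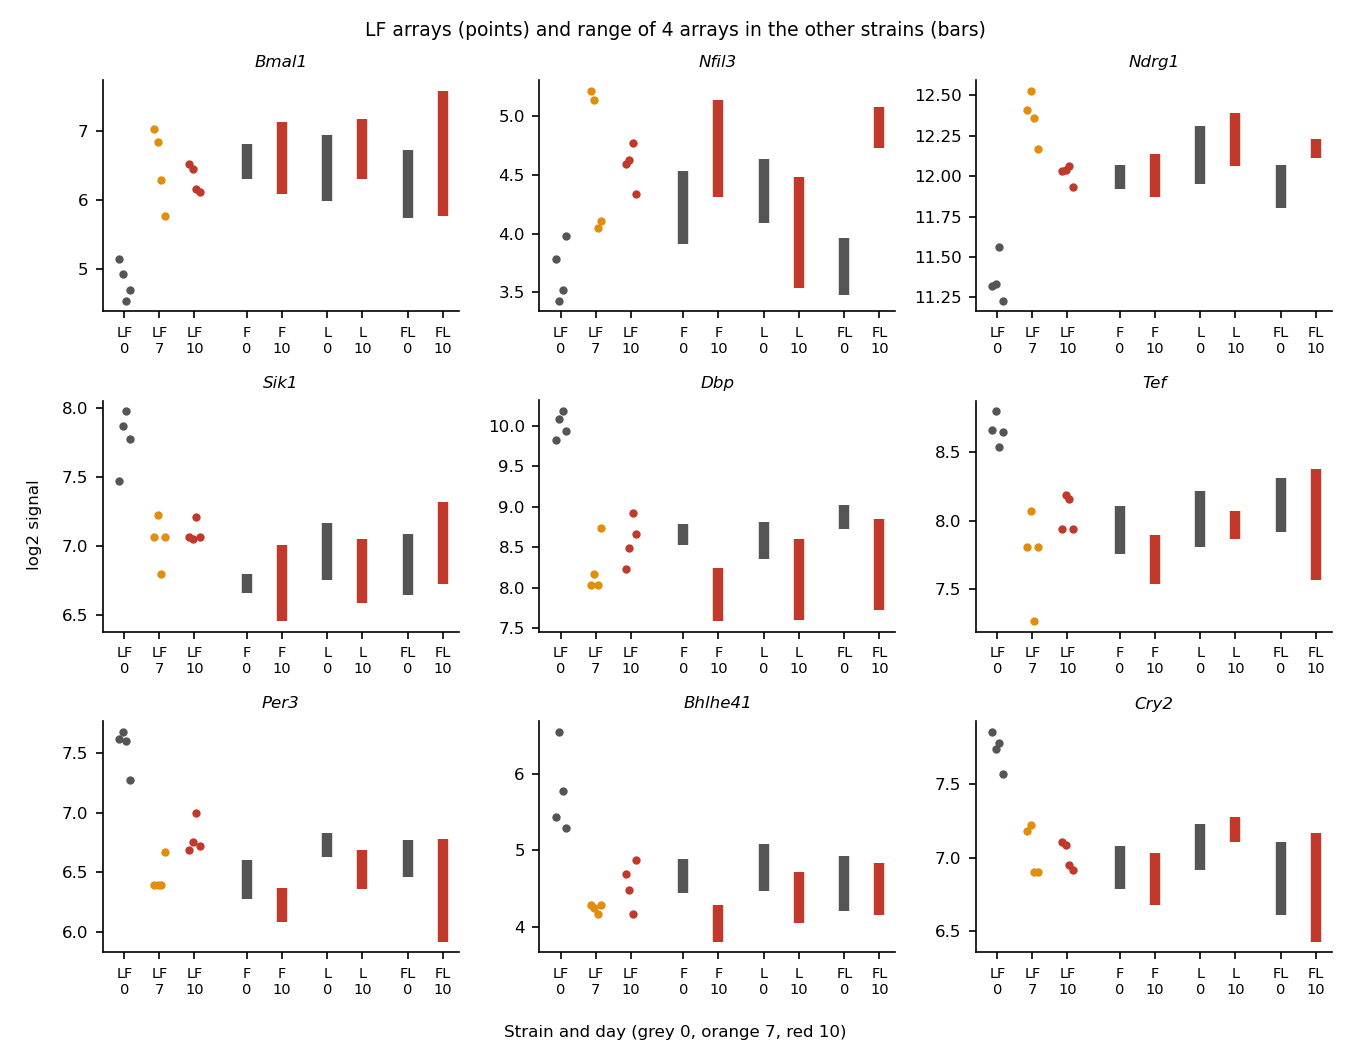
Each panel shows 1 gene, with strain and day on the x axis and log2 signal on the y axis. Points are LF arrays, 4 a day, and bars span the lowest to highest of 4 arrays in F, L and FL. For Dbp the LF day 0 points, at 9.82 to 10.18, stand above every bar, and for Bmal1 they stand below every bar, at 4.55 to 5.15.

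Of these calls, Dbp, Bmal1, Cry2, Per3, Ndrg1 and Sik1 held in all single-array omissions and alternative fits. Nfil3 was lost without day 0 replicate 1, 2 or 3 or day 10 replicate 1, 2 or 3 (adjusted p between 0.0703 and 0.151), Tef without day 0 replicate 1, 2 or 4 or day 10 replicate 1 or 4 (between 0.0634 and 0.112), and Bhlhe41 with the 8 arrays alone (0.112).

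Collecting duct genes split. Of 23 measured markers, 2 rose and 2 fell (17.4%, against 0.949% of all named genes called), and the list median was 0.04. Sgk1, a kinase induced by aldosterone and glucocorticoids that keeps the epithelial sodium channel at the surface, read 9.90, 9.75, 9.59 and 9.41 at day 0 and 11.36, 11.17, 10.43 and 10.44 at day 10 (1.19 ± 0.27, adjusted p = 0.0144). Replicates 1 and 2 were the high day 10 arrays, and all 4 exceeded every day 0 array. Against the mean of F, L and FL, Sgk1 in LF was lower at day 0 (-0.91 ± 0.22, adjusted p = 0.0176) and stood at 0.07 ± 0.22 at day 10 (adjusted p = 0.928). Its response was 0.24 in F, 0.41 in L and -0.02 in FL, and the LF response was not shown to differ from their mean (adjusted p = 0.501). Scnn1a, the alpha subunit of that channel, went from 6.83, 7.03, 6.70 and 6.69 to 7.49, 7.81, 7.43 and 7.08, also without overlap (0.64 ± 0.16, adjusted p = 0.0277).

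The water channel Aqp2 read 10.10, 9.76, 9.87 and 9.84 at day 0 and 9.05, 9.30, 9.79 and 8.92 at day 10, a fall of 0.63 ± 0.16 (adjusted p = 0.0483). Day 10 replicate 3 lay within the day 0 range. Slc14a2, the urea transporter of the inner medulla, fell from 6.54, 6.74, 6.38 and 6.21 to 5.84, 5.98, 6.10 and 5.84, without overlap (-0.53 ± 0.12, adjusted p = 0.0144). Scnn1g, the gamma subunit of the sodium channel, had -0.30 (adjusted p = 0.829) and Aqp3 -0.20 (adjusted p = 0.999).

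Without day 10 replicate 1 none of the 4 passed (Sgk1 0.115, Scnn1a 0.0975, Slc14a2 0.0856, Aqp2 0.227, as adjusted p). The 8 arrays alone gave 0.0597, 0.152, 0.152 and 0.253 in the same order. Sgk1 was also lost without day 0 replicate 4 or day 10 replicate 2 (0.0717 and 0.0819), and Scnn1a without any array except day 0 replicate 2 and day 10 replicate 4 (0.0557 to 0.2). Slc14a2 was lost without day 0 replicate 1 or 2 or day 10 replicate 4 (0.0689, 0.122 and 0.0741) and Aqp2 without any array except day 10 replicate 3 (0.0653 to 0.305) and, with all LF arrays kept, after a second quantile normalization (0.0582) or without the 5 low-spread arrays (0.0603).

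In the proximal tubule, 2 of 24 measured markers fell (8.33%, against 0.949% of all named genes called), and the median was -0.07. Slc5a2, the sodium-glucose carrier of the early proximal tubule, read 10.72, 10.57, 10.46 and 10.41 at day 0 and 9.80, 10.05, 9.82 and 9.81 at day 10, a fall of 0.67 ± 0.14 (adjusted p = 0.00623), without overlap and in every alternative. Dpep1, a brush border dipeptidase, fell from 7.64 to 8.05 at day 0 to 7.10 to 7.32 at day 10 (-0.65 ± 0.17, adjusted p = 0.0449), and its call was lost without any single array except day 0 replicate 4 (adjusted p between 0.0558 and 0.193). Lrp2, the endocytic receptor of this segment, had -0.07 (adjusted p = 0.999).

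Of 20 measured markers of the loop and distal convoluted tubule, 0 passed the test, with a median of -0.14, 16 below 0. Calb1, a calcium buffer of the distal tubule, read 10.34, 10.51, 10.05 and 9.96 and then 9.23, 9.24, 9.48 and 9.27, without overlap (-0.91 ± 0.24, adjusted p = 0.0576). Slc8a1, the sodium-calcium exchanger of the same cells, had -0.79 ± 0.27 (adjusted p = 0.246). Umod had -0.14 (adjusted p = 0.86) and Slc12a1, the target of loop diuretics, -0.22 (adjusted p = 0.752). Of the phosphate, calcium and vitamin D genes, 1 of 27 rose, Slc34a2, which is also on the injury list.

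Among 14 measured podocyte markers 1 fell, Ptprq, a tyrosine phosphatase found in podocytes and inner ear hair cells, and the median was 0.13. It read 4.58, 5.24, 5.11 and 4.65 at day 0 and 4.32, 3.51, 4.19 and 4.03 at day 10, without overlap (-0.88 ± 0.15, adjusted p = 0.000217). With the 8 arrays alone its adjusted p was 0.146. Ptprq was also among the dimmest probe sets, which 1 alternative fit left out. Nphs1, the nephrin of the filter, had 0.16 ± 0.10 (adjusted p = 0.984), with all 8 arrays between 6.33 and 6.91. Of 13 endothelial markers 0 passed, with a median of -0.04.

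Of 20 measured macrophage markers 2 rose (10%, against 0.949% of all named genes called), with a median of 0.09. Gpnmb, a glycoprotein of lysosome-rich macrophages and injured cells, rose from 5.25, 5.36, 4.82 and 5.16 to 6.94, 6.31, 5.77 and 5.89 (1.08 ± 0.18, adjusted p = 0.000194). Itgam, an integrin of myeloid cells, rose from between 3.86 and 3.95 to between 4.09 and 4.36 (0.32 ± 0.08, adjusted p = 0.0232). Adgre1, the classic surface marker of resident macrophages, had -0.60 ± 0.21 (adjusted p = 0.315), and the mean level over the 20 markers ran from 6.13 to 6.45 at day 0 and from 6.20 to 6.45 at day 10. Of 17 T and natural killer cell markers, 4 B and plasma cell markers, 11 granulocyte and mast cell markers and 4 erythroid and platelet markers, 0 passed. Gpnmb was lost with the 8 arrays alone (adjusted p = 0.123), and Itgam there (0.211) and without day 0 replicate 1, 3 or 4 or day 10 replicate 1 or 4 (0.0623 to 0.153).

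Of 46 chemokines and cytokines 1 fell and 0 rose. Cxcl12, which holds progenitor and immune cells in tissues, read 8.06, 8.54, 8.22 and 8.31 at day 0 and 7.58, 7.23, 7.57 and 7.17 at day 10, a fall of 0.90 ± 0.15 (adjusted p = 0.000261). The groups were apart, and the call held in all alternatives. Of the 25 complement and coagulation genes and the 17 histocompatibility genes 0 passed.

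Among stromal and matrix genes, Tagln, an actin-binding protein of smooth muscle and activated fibroblasts, was the 1 of 15 smooth muscle, pericyte and fibroblast markers that rose (list median 0.20, 13 above 0). It went from 7.80, 7.80, 7.75 and 7.54 to 8.46, 8.49, 8.50 and 8.80 (0.84 ± 0.15, adjusted p = 0.000745). Cspg4, a pericyte proteoglycan, had 0.40 (adjusted p = 0.0576). Of 30 matrix and fibrosis genes 1 rose, Timp1, with a list median of 0.14, and Lox, which crosslinks collagen, had 0.44 (adjusted p = 0.0509). Off these lists, the protease Adamts1 rose by 1.23 ± 0.23, the calcification inhibitor Mgp by 0.84 ± 0.16, and Itgb4 and Lama3, an integrin subunit and a chain of the laminin it binds, by 0.44 ± 0.10 and 0.35 ± 0.08. Itgb4 and Lama3 lost their calls with the 8 arrays alone (adjusted p = 0.232 and 0.404). Itgb4 also lost it without day 0 or day 10 replicate 1 (0.0978 and 0.1), and Lama3 with array medians subtracted (0.0527) and without day 0 replicate 1, 3 or 4 or day 10 replicate 1 or 4 (0.0549 to 0.252).

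Rasd1, a Ras-like protein induced by dexamethasone, read 5.24, 5.64, 5.31 and 5.41 at day 0 and 7.11, 6.72, 6.38 and 6.95 at day 10 (1.39 ± 0.29, adjusted p = 0.00561), without overlap and in every alternative. Jun, a subunit of the AP-1 factor, rose by 0.71 ± 0.17 (adjusted p = 0.0283), so that 2 of 33 immediate early genes rose and 1, Sik1, fell. Atf3, a stress factor, rose by 0.89 ± 0.22 (adjusted p = 0.0276) as 1 of 27 genes of the Atf4-linked list, and the small heat shock protein Hspb1 by 0.62 ± 0.13 (adjusted p = 0.00806), 1 of 2 rises with Clu among 17 chaperone genes. Jun was lost without any single array except day 10 replicates 2 and 3 (adjusted p between 0.0551 and 0.181) and with the 8 arrays alone (0.0506), and Atf3 without any except day 0 replicate 3 and day 10 replicates 2 and 3 (between 0.064 and 0.181). Hspb1 was lost without day 0 replicates 1 or 4 or day 10 replicate 2 and with the 8 arrays alone (0.0529 to 0.0598).

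Gadd45g, a growth arrest gene, fell from 8.86, 8.85, 8.69 and 7.82 to 7.42, 7.03, 6.92 and 7.17 (-1.42 ± 0.32, adjusted p = 0.0116), with day 0 replicate 4 far below the other day 0 arrays but above all day 10 arrays. It was the 1 call among 16 p53 and growth arrest genes, and it was lost without day 0 replicate 1 or 2 (adjusted p = 0.0689 and 0.0622). Cdkn1a, the p21 inhibitor of the cell cycle, read 5.0, 5.32, 5.20 and 5.02 and then 6.46, 5.95, 6.26 and 6.17, without overlap, but missed the threshold (1.08 ± 0.29, adjusted p = 0.0603). Ccnd1, the cyclin of early G1, fell from 10.09, 10.15, 9.92 and 9.93 to 9.11, 9.20, 9.56 and 8.92 (-0.83 ± 0.18, adjusted p = 0.00806), the 1 call among 20 cell cycle genes. It was lost without day 10 replicate 4 (adjusted p = 0.0655). Igf1, the growth factor, fell by 0.75 ± 0.16 (adjusted p = 0.0093), from between 7.16 and 7.75 to between 6.48 and 6.92.

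Ces1e, a carboxylesterase that cleaves esters of drugs and lipids, read 7.94, 7.89, 7.85 and 7.65 at day 0 and 6.64, 5.97, 6.20 and 6.29 at day 10, a fall of 1.56 ± 0.22 (adjusted p = 1.5e-05), and was the 1 call among 42 xenobiotic enzymes. The lowest day 0 array stood well above the highest day 10 array. Acaa2, a thiolase of mitochondrial fatty acid oxidation, fell from 10.69, 10.27, 10.39 and 10.25 to 10.02, 10.01, 9.74 and 9.74 (-0.52 ± 0.13, adjusted p = 0.0378), 1 of 38 genes of that list. Its call was lost with the 8 arrays alone (adjusted p = 0.152) and without day 0 replicates 1 or 3 or day 10 replicates 1, 3 or 4 (0.0525 to 0.27). Of 33 gluconeogenesis and amino acid genes 0 passed, although 25 lay below 0 (median -0.11), and of 28 desaturase, lipid and sterol genes 0 passed. Scd, a desaturase, had -1.59 ± 0.54 (adjusted p = 0.248), with day 0 spread from 4.41 to 7.84. Of 27 hypoxia and glycolysis genes 1 rose, Ndrg1.

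The targets of the aryl hydrocarbon receptor did not pass the test in LF at day 10 (0 of 8 measured). Cyp1a1 read 4.65, 5.15, 4.49 and 4.89 at day 0 and 6.33, 5.91, 4.35 and 4.67 at day 10, so replicates 1 and 2 were higher and replicates 3 and 4 were within or below the day 0 range (0.52 ± 0.43, adjusted p = 0.999). Of 21 Nrf2 targets and glutathione enzymes 0 passed either. Hmox1, heme oxygenase 1, lay at 4.75 to 5.07 at day 0 and at 5.22 to 6.10 at day 10, without overlap (0.94 ± 0.86, adjusted p = 0.999), and at 10.19, 9.14, 10.57 and 5.87 at day 7. This standard error comes from the spread within all groups of the series, including the widely spread day 7 arrays. It therefore does not measure the spread of the day 0 and day 10 arrays alone.

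Of the 16 measured genes of the angiotensin and kinin system 0 passed, with 13 below 0 and a median of -0.08. Ace, the angiotensin converting enzyme, read 7.12, 7.40, 7.05 and 7.11 at day 0 and 6.98, 6.70, 6.77 and 6.75 at day 10, without overlap (-0.37 ± 0.16, adjusted p = 0.59). Agtr1a, the main angiotensin II receptor, had -0.45 ± 0.20 (adjusted p = 0.656) and Agt, the precursor, 0.00 ± 0.14. Of 29 vasoactive genes 0 passed.

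Over the 16 lists without a call, 34 of 289 list entries had an unadjusted p under 0.05 in limma's test (11.8%, against 6.6% of all probe sets). They included 1 of 8 for the aryl hydrocarbon receptor, 2 of 21 for Nrf2, 3 of 16 for angiotensin and kinins, 0 of 29 vasoactive genes, 5 of 20 for the loop and distal tubule, 0 of 13 endothelial and 5 of 27 interferon response genes.

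**Figure D4:**
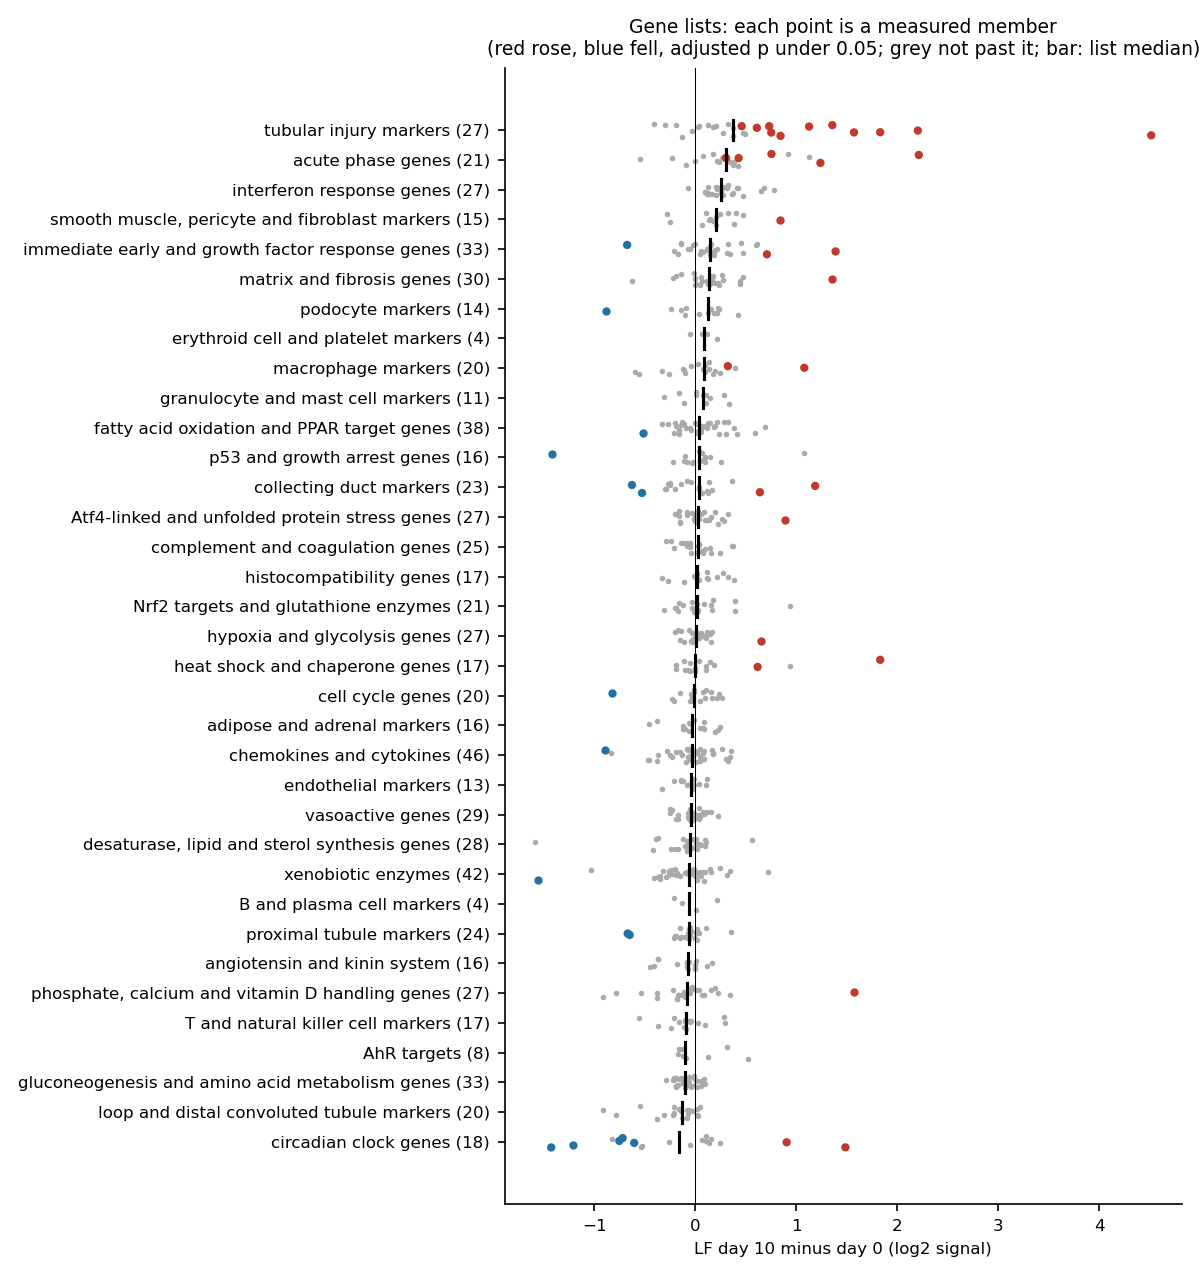
Each row is a gene list with its number of measured members in brackets, and each point is a member placed by its LF day 10 minus day 0 difference in log2 signal on the x axis. Red points rose, blue points fell, grey points did not pass, and bars are list medians, which reach 0.38 in the injury markers and -0.16 in the clock genes.

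Of the 72 calls with 1 gene symbol 44 were on a list and 28 on none. Among the latter, Slfn9 (1.06 ± 0.27), the caspase Casp12 (0.98 ± 0.23), the gap junction protein Gja1 (0.91 ± 0.21), the lipoxygenase Alox15b (0.89 ± 0.14), the transcription repressor Tgif1 (0.86 ± 0.16), the apoptosis inhibitor Birc3 (0.76 ± 0.19) and the adhesion receptor Pvr (0.77 ± 0.17) rose. Casp12 lay at 3.78 to 4.33 at day 0 and at 4.74 to 5.25 at day 10. Those that fell included Or10d5j, an olfactory receptor gene (-1.42 ± 0.35, day 0 from 4.19 to 6.27), the leukotriene receptor Cysltr2 (-1.02 ± 0.26), the diacylglycerol kinase Dgkg (-0.78 ± 0.15), the steroid enzyme Hsd17b1 (-0.66 ± 0.14) and the incretin receptor Glp1r (-0.56 ± 0.10). Glp1r lay at 5.66 to 5.89 at day 0 and at 5.13 to 5.36 at day 10, without overlap, and it held in every alternative, as did Alox15b and Tgif1.

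Slfn9, Casp12, Gja1, Birc3, Cysltr2 and Or10d5j each missed the threshold without day 10 replicate 1 (adjusted p between 0.0975 and 0.308), as did Pvr (0.0975). Slfn9 was lost also without day 0 replicate 1, 3 or 4 or day 10 replicate 2 or 3, Casp12 without day 0 replicate 1, 2 or 4 or day 10 replicate 2 or 4, and Gja1 without day 0 replicate 1 or 4 or day 10 replicate 2 or 4 (adjusted p between 0.0529 and 0.177). Birc3 was lost without day 0 replicate 1, 2 or 3 or day 10 replicate 4, Cysltr2 without day 0 replicate 1, 2 or 4 or day 10 replicate 3 or 4, and Pvr without day 10 replicate 4 (between 0.063 and 0.153). The 8 arrays alone gave 0.194 for Birc3, 0.0531 for Cysltr2, 0.109 for Pvr, 0.297 for Or10d5j and 0.0994 for Igf1. Hsd17b1 was lost without day 0 replicate 3 (0.0519) or day 10 replicate 2 (0.0529), and Dgkg with the 8 arrays alone (0.0521). Or10d5j was lost without day 0 replicate 2, its highest array (adjusted p = 0.323), and without day 0 replicate 3 or day 10 replicate 2 or 4 (0.0681 to 0.23). Or10d5j was also among the dimmest probe sets, which 1 alternative fit left out. Igf1 was lost without day 0 replicate 2 or day 10 replicate 2 or 4 (0.0556 to 0.0721).

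Smaller rises were Tsc22d1 (0.77), A3galt2 (0.74), Rhob (0.64), Fbxo9 (0.59), Ipmk (0.58), Actn1 (0.54), Adra1d (0.45), Ccn3 (0.43) and Ctsd (0.34), and falls were Mturn (-0.51) and Hes6 (-0.49). Of these, Tsc22d1, Fbxo9 and Ipmk held in every alternative, and Ctsd was lost with the 8 arrays alone (adjusted p = 0.166). Rhob and Ccn3 were lost in 8 of 8 omissions of a single array, Adra1d and Actn1 in 6, A3galt2 in 4, and Mturn and Hes6 in 3. The highest adjusted p was 0.255, for Ccn3 without day 0 replicate 4. The 8 arrays alone also lost A3galt2, Actn1, Adra1d, Ccn3, Mturn and Hes6. A second quantile normalization and subtracting array medians each lost Adra1d and Ccn3, and dropping the 5 low-spread arrays lost Ccn3. Of the probe sets without a gene symbol, 7101220 rose by 1.11 ± 0.20 and 7097063 by 0.38 ± 0.09, and 7105149 fell by 1.52 ± 0.17 and 7265309 by 1.07 ± 0.20. Probe set 7097063 was lost with the 8 arrays alone (adjusted p = 0.166), with array medians subtracted (0.116) and without any single array except day 0 or day 10 replicate 3 (0.074 to 0.111). It was also among the dimmest probe sets, which 1 alternative fit left out. Probe set 7105149 read 7.11, 7.14, 7.12 and 6.98 at day 0 and 6.11, 5.20, 5.52 and 5.44 at day 10, a narrow group against a wide one without overlap (adjusted p = 1.16e-07).

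At day 7 of treatment 34 probe sets were higher and 165 were lower than on the same LF day 0 arrays (2.26% of all, 0.386% higher and 1.88% lower). The balance moved with the scaling, to 187 against 207 when the arrays were quantile normalized again, 133 and 174 with array medians subtracted and 157 and 115 with the array spread as covariate. Because both comparisons share those arrays, their values are set side by side only. Havcr1 stood 2.96 above day 0 at day 7 and 4.52 above it at day 10, Lcn2 1.24 and 2.21, Clu 0.70 (adjusted p = 0.0716) and 1.83. Serpina3n stood at 2.13 and 2.21 and Bmal1 at 1.66 and 1.49, and Dbp at -1.76 and -1.43. Ces1e was at -1.05 and -1.56. Adamts1 (0.31), Cd44 (0.31), Gpnmb (0.27), Jun (0.07), Anxa2 (0.13), Casp12 (-0.28) and Slfn9 (-0.14) did not pass at day 7 and rose at day 10. Such pairs of calls do not test day 10 against day 7. Tested directly, Havcr1 was 1.56 ± 0.54 higher at day 10 than at day 7 (adjusted p = 0.135) and did not pass. Of the 27 measured injury markers, 6 rose between these days, as did 1.07% of all probe sets.

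Between day 7 and day 10, 94 probe sets rose and 9 fell (1.17% of all, 1.07% for rises and 0.102% for falls). This split moved too, to 126 and 70 after a second quantile normalization, 81 and 41 with medians subtracted and 72 and 61 with the spread covariate. Interferon response genes, which block virus replication, made up part of these, with 19 of 27 measured genes higher at day 10 than at day 7 and a list median of 0.99. Oas1a, a sensor of double-stranded RNA, read 6.28, 6.51, 5.67 and 6.19 at day 0, 2.80, 2.96, 3.48 and 4.00 at day 7 and 6.38, 6.05, 7.86 and 6.96 at day 10. The day 7 arrays were the low ones, and replicates 3 and 4 were the high ones at day 10. From day 7 to day 10 Oas1a rose by 3.50 ± 0.54 (adjusted p = 0.000152), Mx2 by 2.73 ± 0.31 (adjusted p = 6.71e-07), Slfn4 by 2.51 ± 0.33 (adjusted p = 7.71e-06) and Mx1 by 2.25 ± 0.31 (adjusted p = 1.49e-05).

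Against day 0 the same list had 0 of 27 genes past the threshold at day 10, with 26 above 0 and a median of 0.25, and a median of -0.74 at day 7. Mx2 read 6.80, 7.11, 6.66 and 6.63 at day 0 and 6.95, 6.91, 8.25 and 7.83 at day 10, so replicates 1 and 2 lay within the day 0 range and replicates 3 and 4 above it (0.69 ± 0.31, adjusted p = 0.657). Cbx3, a chromatin protein, had the largest rise from day 7 to day 10 among named genes, at 3.90 ± 0.85 (adjusted p = 0.0127). Cbx3 read 5.38, 6.93, 3.20 and 3.08 at day 0, 1.96, 2.64, 2.35 and 1.52 at day 7 and 7.42, 7.01, 4.83 and 4.82 at day 10. On both day 0 and day 10, replicates 1 and 2 were above replicates 3 and 4. The count of day 7 to day 10 calls ran from 31 without day 7 replicate 3 to 171 without day 7 replicate 1, and was 24 with the 8 arrays alone and 524 with the array set as a block.

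The LF day 10 response was then compared with the mean response of F, L and FL. It differed for 5 probe sets (0.0568%), 2 higher (0.0227%) and 3 lower (0.0341%) in LF. Lcn2 rose by 2.21 in LF against 0.45 in F, 0.42 in L and -0.08 in FL, a difference of 1.94 ± 0.24 (adjusted p = 3.8e-06). Its LF day 10 arrays, at 7.51 to 8.10, lay above all day 10 arrays of F (4.70 to 5.12), L (5.62 to 6.86) and FL (4.61 to 4.83). The LF response also exceeded that of each strain taken alone, by 1.76 ± 0.29 over F (adjusted p = 0.00348), 1.78 ± 0.29 over L (adjusted p = 0.00256) and 2.29 ± 0.29 over FL (adjusted p = 1.02e-05). These 3 comparisons called 2, 2 and 1 probe sets (0.0227%, 0.0227% and 0.0114%). Against L the adjusted p was 0.128 with the arrays compared alone.

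Ces1e fell by 1.56 in LF, against -0.33 in F, 0.24 in L and -0.11 in FL (difference -1.49 ± 0.25, adjusted p = 0.0024). Its day 0 level differed between strains, 7.65 to 7.94 in LF, 7.00 to 7.58 in L, 4.50 to 4.60 in F and 4.34 to 4.52 in FL. Against L alone, where the day 0 level was near that of LF, the difference was -1.80 ± 0.31 (adjusted p = 0.00317). Acaa2 fell in LF and had positive responses of 0.42 in F, 0.32 in L and 0.32 in FL (difference -0.88 ± 0.15, adjusted p = 0.0032). Against F alone its difference was -0.94 ± 0.19 (adjusted p = 0.0464), a call lost without F day 0 replicates 3 or 4, F day 10 replicates 1 or 3, LF day 0 replicates 1 or 3 or LF day 10 replicates 3 or 4 (adjusted p between 0.0705 and 0.194) and with the arrays compared alone (0.134).

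Cry2 and Ndrg1 were the other differences, at -0.71 ± 0.14 and 0.55 ± 0.11 (adjusted p = 0.0185 for both). In both genes it was the LF day 0 arrays that lay apart from the other strains, as described for the clock genes, while the LF day 10 arrays of Cry2 (6.92 to 7.11) lay within the span of the other strains' day 10 arrays (6.43 to 7.28). Cry2 lost this call without LF day 0 replicate 1, 2 or 3 or LF day 10 replicate 3 or 4 (adjusted p between 0.0647 and 0.103), and Ndrg1 without LF day 0 replicate 1, 2 or 4 or LF day 10 replicate 1, 2 or 3 (between 0.0544 and 0.0939).

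For Havcr1 and Clu, the other large injury rises, the response of LF was not shown to differ from that of the other strains, although their day 10 levels did. The Havcr1 response was 3.07 in F, 1.67 in L and 2.23 in FL, and the LF excess over their mean was 2.19 ± 0.63 (95% interval 0.93 to 3.46, adjusted p = 0.295). The LF day 10 arrays, at 7.32 to 9.32, overlapped those of F (5.44 to 7.68) and FL (4.64 to 8.03) but not those of L (4.09 to 7.04), and stood 2.26 ± 0.44 above the mean of these strains at day 10 (adjusted p = 0.00151). The Clu response was 0.97 in F, 0.43 in L and 0.81 in FL, with an excess of 1.10 ± 0.25 (95% interval 0.61 to 1.60, adjusted p = 0.0651). Its LF day 10 arrays, at 10.09 to 10.85, lay above every day 10 array of F, L and FL, the highest of which read 9.85, by 1.29 ± 0.17 over their mean (adjusted p = 3.55e-06). Aqp2 fell by 0.63 in LF and had -0.80 in F, -0.63 in L and -0.38 in FL, and Cxcl12 had -0.90, -0.74, -0.50 and -0.42 (adjusted p of the difference 0.999 for both).

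**Figure D5:**
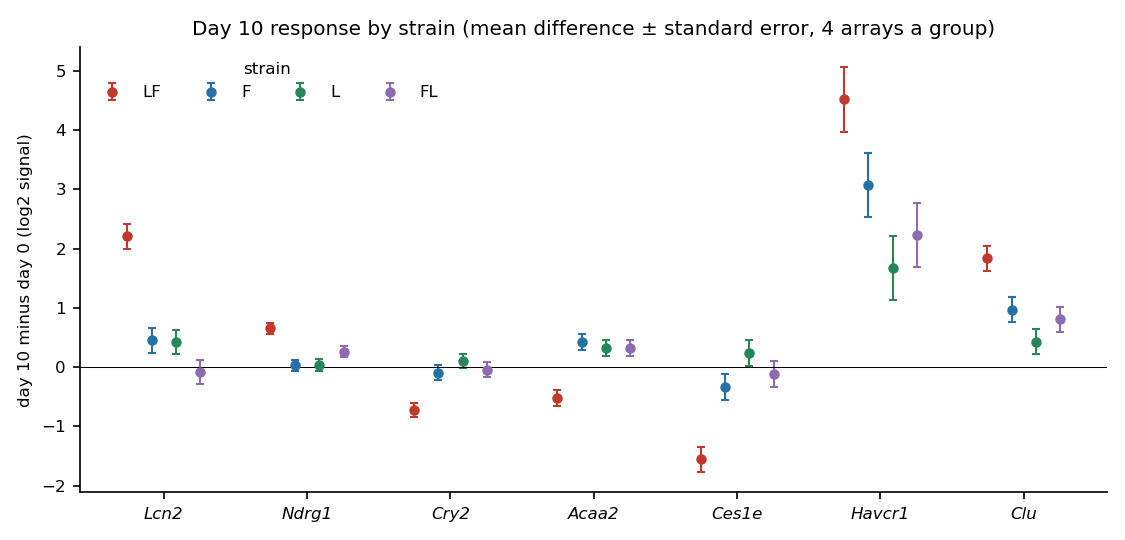
Points give the day 10 minus day 0 difference in log2 signal of each strain for 7 genes, 4 arrays a group, and bars the standard error. LF (red) stands above the other strains in Lcn2, at 2.21 against at most 0.45, and below them in Ces1e, at -1.56.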

How the data were processed

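Total kidney RNA was measured on whole-transcript arrays. Trizol extraction, DNase treatment, column purification and removal of ribosomal RNA preceded labelling, per the labels' protocols. RMA and limma appear in the submitters' processing notes with neither version nor role, so the deposited log2 values are taken as the authors' RMA signals. The selection of the 8797 probe sets, its annotation and the genome build are not given in the sources used here. Of them 7603 carried 1 gene symbol, 409 several and 785 none, and 7584 symbols were updated through the Entrez identifier. A gene with several probe sets was represented by the brightest.

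Group means were modelled over 48 arrays in limma 3.58.1 in R 4.3.3 (36 residual and 3.69 prior degrees of freedom), with all p-values adjusted over 8797 probe sets and a threshold of 0.05. The code was tested on simulated data. Members, gene lists (35 lists, 734 of 1122 genes measured) and tests were chosen with earlier results of these data known, and the comparison of clock genes between strains within a day was added after the values were seen. Named genes were the 15 largest rises and falls, the members of each list with the smallest p (up to 5), the 5 largest each way in the other comparisons and a few preset genes, some of which are not reported here. Other called genes, Umod, Lrp2, Slc12a1, Aqp3, Scnn1g, Wee1 and Usp2 were named after their values were seen. Promoters were the 250 bases before the gene start in RefSeq's GRCr8 table.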

Additional observations from a re-analysis of the deposited data

Results flagged for a closer look

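Lcn2 differed in its day 10 response between LF and the mean of F, L and FL (1.94, adjusted p = 3.8e-06), and between LF and L (1.78), F (1.76) and FL (2.29) taken singly. Ces1e differed from the mean by -1.49 (adjusted p = 0.0024) and from L by -1.80, and Acaa2 from the mean by -0.88 (adjusted p = 0.0032) and from F by -0.94 (adjusted p = 0.0464). Cry2 (-0.71) and Ndrg1 (0.55) differed from the mean at an adjusted p of 0.0185 each, with the LF day 0 arrays apart from the other strains in both.

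In 7 of the 156 groups of 4 arrays examined, 1 array lay far from the others, with a gap over 0.829 of the group's range. Chance alone marks about 1 group in 20. The arrays were Slc5a2 at day 10 replicate 2 (10.05, others 9.80 to 9.82), Dgkg at day 10 replicate 1 (8.07, others 7.59 to 7.61), Sik1 at day 10 replicate 3 (7.21, others 7.05 to 7.07) and Tagln at day 10 replicate 4 (8.80, others 8.46 to 8.50), each the highest of its group. The lowest of their groups were Adamts1 at day 0 replicate 4 (7.65, others 8.02 to 8.09), Gadd45g at day 0 replicate 4 (7.82, others 8.69 to 8.86) and Hmox1 at day 10 replicate 3 (5.22, others 5.96 to 6.10).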

How the results depend on the processing

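Of the 76 named probe sets called in LF at day 10 against day 0, 43 kept their call under every setting other than left-out arrays and 32 under all settings, and 0 reversed. The fit without the dimmest probe sets covered 71 of the 76. The 78 calls became 49 with the arrays compared alone, 164 with array weights, 146 after a second quantile normalization, 150 with array medians subtracted and 217 with the spread covariate, and leaving out 1 array gave 47 to 79. The cause was not tested. Day 7 against day 0 gave 199 calls, 59 with the arrays compared alone, 332 with weights, 394 after quantile normalization, 307 with medians subtracted, 125 without the 5 arrays of lowest spread (an alternative chosen after seeing the data) and 57 to 275 with 1 array left out. Day 10 against day 7 gave 103 calls, and in the same order 24, 162 and 196 (medians subtracted stayed within 1.5 times), then 44 and 31 to 171.

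The response of LF against the mean of F, L and FL gave 5 calls, 16 with weights, 20 after quantile normalization, 17 with medians subtracted, 26 with the spread covariate, 9 without dim probe sets, 14 without the low-spread arrays and 3 to 10 with 1 array left out. Against L alone these were 2, then 9, 9, 9, 19 and 5, with 2 to 4 for left-out arrays. Against F alone they were 2, then 8, 13, 9, 20, 4 and 5, with 1 to 4. Against FL alone they were 1, then 9, 8, 6, 8 and, without the low-spread arrays, 5, with 1 to 5. Probe sets whose groups do not overlap numbered 454 (2.66% of all with day 10 above and 2.5% with day 10 below). Leaving out 1 array gave 601 to 793, but this count cannot fall when an array is removed.

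Same-numbered LF day 0 and day 10 arrays correlated in their deviations at 0.0792, -0.0203, 0.161 and 0.252, and the main fit did not take the replicate numbers as pairs. These correlations cover only these groups and do not show that the array sets share no variation. With the replicate block the counts were 112 for day 10 and 722 for day 7 against day 0, 524 for day 10 against day 7, and 15, 8, 7 and 5 for the response against the mean, L, F and FL; no named call in LF at day 10 was lost under the block.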
